A study of Mus musculus with 2 samples.

Results

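C-type lectin domain receptors and Siglecs are surface proteins through which leukocytes read glycans and related ligands. Clec4d, Clec4e, Clec4n and Clec7a encode receptors of macrophages, monocytes, neutrophils and dendritic cells that bind microbial sugars and glycolipids, and some also bind material of dead cells. They signal through an ITAM, a tyrosine motif carried by the adaptor Fc receptor gamma chain (Fcer1g) or, for Clec7a, by a shorter form of it in the receptor itself, to the kinase Syk and from there to Card9 and NF-kB. Siglecs bind sialic acid, and most of them carry inhibitory motifs that recruit the phosphatases Ptpn6 and Ptpn11. Some proteins named after the C-type lectin domain have other tasks, such as ligands of NK cell receptors, secreted factors and an intracellular regulator of mitophagy.

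The genes were taken by name, as all symbols that start with Clec and a digit, with Siglec or with Cd209, and Mgl2. By this rule 52 probe sets for 39 of the 18193 genes named on the array were members, and 11 of the 39 genes had several probe sets. The donors were wild type C57BL/6 mice. Under the left kidney capsule, 50 of their islets were put into a hyperglycemic male recipient heterozygous for Akita, a missense mutation of Ins2, or into a normoglycemic male wild type C57BL/6 recipient. These are called the hyperglycemic and the normoglycemic graft after the recipient. The grafts were taken at 6 hours and total RNA of each was hybridized to 1 MOE430 2.0 array (GeneChip), so that each condition had 1 array, no replicate and no test. The study transplanted the Akita mice of its 50-islet groups as young adults. An age of the mice used for the arrays is not given separately, nor how many mice each sample stands for. Recipient genotype and blood glucose differed together and cannot be told apart.

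The deposited values are MAS5 signals on a linear scale. Of the probe sets of a gene, the one brightest on average over both arrays (log2 scale) stood for the gene. Signals under the array's median, 91.5 for the hyperglycemic and 82.9 for the normoglycemic graft, are called low. With 1 low signal, it was raised to this floor and the ratio is a bound, written as "at least". With 2 low signals no fold is given. The log2 ratios of 2 probe sets of the same gene were compared. Their root mean square difference, divided by the square root of 2, gave the SD of the ratio of 1 probe set. This is a technical spread within these arrays and not a replicate error. It was grouped by the mean signal of the dimmer probe set. The spread was 1.16-fold at signals over 1024, 1.26-fold at 256 to 1024 and 1.53-fold at 64 to 256. It was 2.90-fold at 16 to 64 and 3.99-fold below 16. Spiked hybridization controls (18 probe sets) had a median ratio, hyperglycemic over normoglycemic, of 1.91, and the 3′ to 5′ ratio of Actb, a sign of RNA quality, was 3.99 in the hyperglycemic and 3.54 in the normoglycemic graft, and that of Gapdh 1.76 in the hyperglycemic and 1.30 in the normoglycemic graft. All 6 listed beta cell genes and all 6 proximal tubule genes on the array had both signals at or above the medians, so that both samples held islet and kidney RNA.

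Of the 39 lectin genes, 13 reached the array medians in both grafts, 2 (Clec10a and Clec4a3) only in the hyperglycemic graft, 1 (Clec1a) only in the normoglycemic graft, and 23 in neither. Over all genes of the array, 59.5% had both signals at or above the medians. With low signals raised to the floor, 7 of the 39 (17.9%) were over 2-fold higher in the hyperglycemic graft, against 2.98% of all genes, and 4 of them over 5-fold, against 0.462% of all genes. None of the 39 was over 2-fold lower, against 1.48% of all genes. The 7 were Clec4e, Clec4d, Clec7a, Clec1b, Clec4n, Clec10a and Cd209a. Of the 13 genes without a low signal, 6 were over 2-fold higher, against 3.53% of the 10816 such genes on the array, 4 over 5-fold higher, against 0.629%, and 0 over 2-fold lower, against 1.89%. Of the same 13, 10 had the higher signal in the hyperglycemic graft, against 44.5% of such genes, and their median log2 ratio of hyperglycemic over normoglycemic was 0.89, against -0.06 over all such genes. These shares describe 2 arrays and carry no test.

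**Figure D1:**
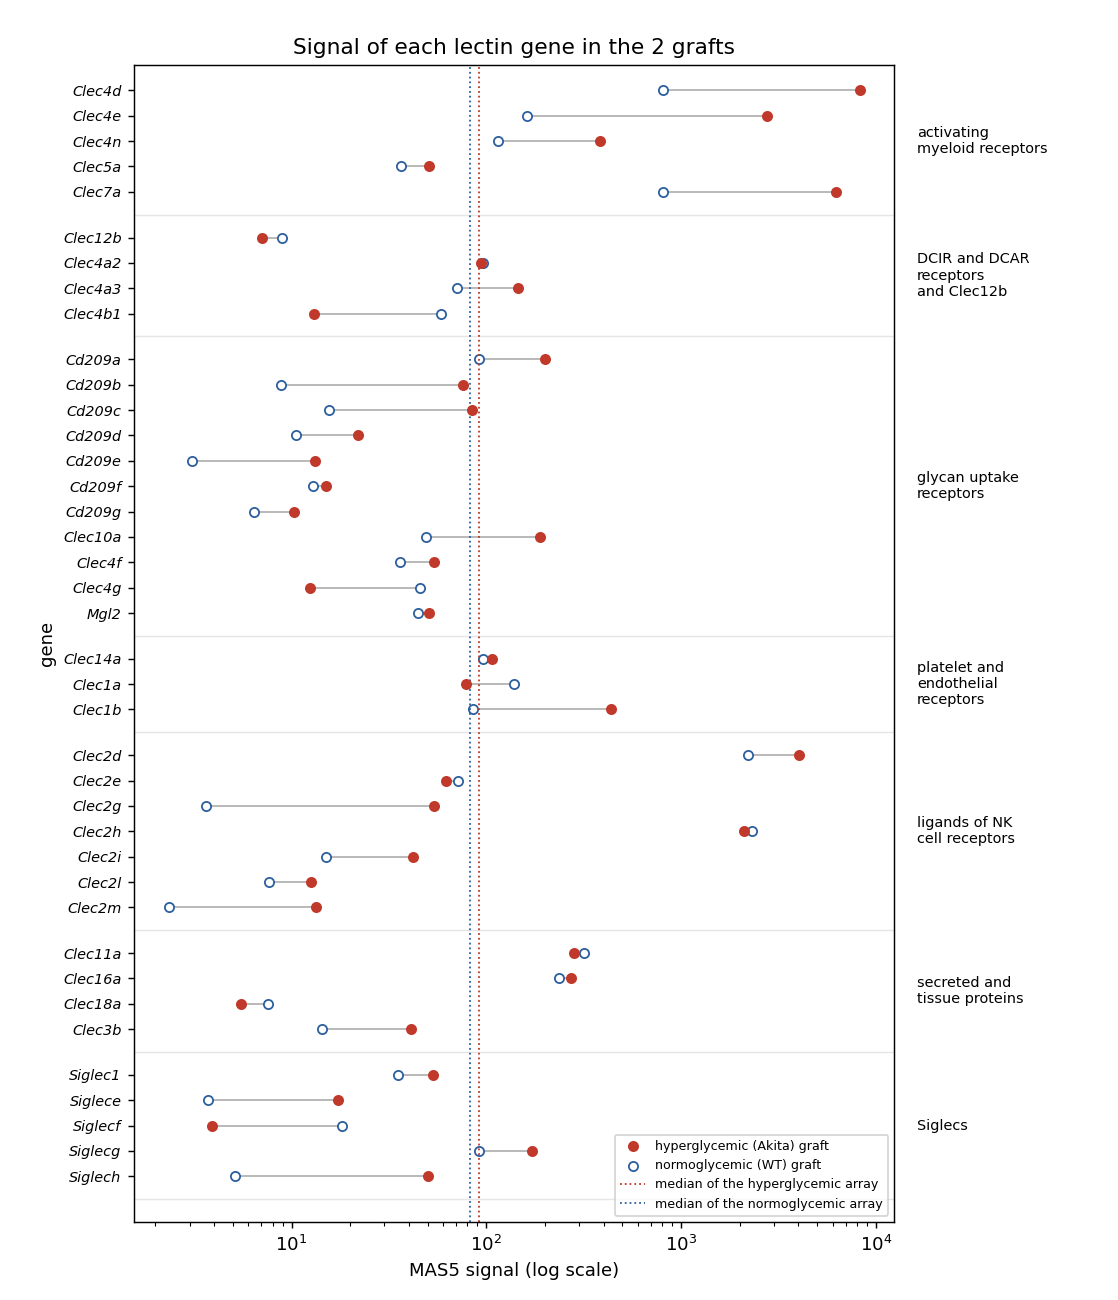
MAS5 signal (x axis, log scale) of each of the 39 lectin genes, grouped by role, in the hyperglycemic graft (filled red) and the normoglycemic graft (open blue), 1 array each, with the array medians as dotted lines. The widest gaps to the right of both medians belong to Clec4e (2761 in the hyperglycemic and 161 in the normoglycemic graft), Clec4d (8281 in the hyperglycemic and 811 in the normoglycemic graft) and Clec7a (6275 in the hyperglycemic and 806 in the normoglycemic graft), while the points of Clec2h and Clec11a nearly touch.

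The activating receptors of myeloid cells held the 3 highest ratios. Clec4e encodes Mincle, a receptor for mycobacterial cord factor and for a nuclear protein that dead cells release, and its signal was 2761 in the hyperglycemic graft and 161 in the normoglycemic graft (17.1-fold). The other probe set of Clec4e had 249 in the hyperglycemic and 62.0 in the normoglycemic graft, and 62.0 is low, which gives at least 3-fold. Both probe sets of Clec4e were thus higher, and they disagreed on the size. Clec4d encodes MCL, the partner that pairs with Mincle at the surface, and its single probe set had signals of 8281 in the hyperglycemic and 811 in the normoglycemic graft (10.2-fold). Clec7a encodes Dectin-1, the receptor for fungal beta-glucan, and its signals were 6275 in the hyperglycemic and 806 in the normoglycemic graft (7.79-fold). For these 3 genes both signals lay above the medians and the ratio was far beyond the technical spread of 1.16-fold to 1.26-fold at their mean signals. Genes of macrophages, which carry these receptors, had a summed signal that was 6.96-fold higher in the same graft, with Lyz2 as its largest part. The median ratio of these macrophage genes was 6.21-fold, as described with the other cell types. The part of macrophages in the ratios of Clec4e, Clec4d and Clec7a was not tested.

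Clec4n, which encodes the mannan receptor Dectin-2, had signals of 382 in the hyperglycemic graft and 115 in the normoglycemic graft (3.33-fold). Its other probe set had 137 in the hyperglycemic and 36.5 in the normoglycemic graft, at least 1.65-fold. The first of these probe sets and the only one of Clec4d are of a design that can bind several transcripts, and without such probe sets Clec4d had no value and Clec4n had only the bound of 1.65-fold. Clec5a, a receptor that signals through the adaptor Tyrobp, was low in both grafts, with signals of 51.0 in the hyperglycemic and 36.3 in the normoglycemic graft. Of these 5 activating receptors, 4 were thus over 2-fold higher, and the fifth could not be compared.

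The next group holds the receptors named DCIR and DCAR, which lie beside the genes above and were first found on dendritic cells, and Clec12b, an inhibitory receptor. With low signals raised to the array medians none of the 4 passed 2-fold, but 1 of them had both signals at or above the medians. This was Clec4a2, an inhibitory receptor with an ITIM. It had signals of 94.2 in the hyperglycemic graft and 96.1 in the normoglycemic graft, and on its other probe set 27.2 in the hyperglycemic and 72.3 in the normoglycemic graft, both low. Clec4a3 had 146 in the hyperglycemic and 71.1 in the normoglycemic graft, at least 1.76-fold higher, and with the floor at the 25th percentile or none its log2 ratio was 1.04, over 2-fold. Clec4b1, which couples to Fcer1g in mice, was low in both grafts (13.1 in the hyperglycemic and 58.7 in the normoglycemic graft), as was Clec12b (7.02 in the hyperglycemic and 8.95 in the normoglycemic graft). A probe set shared by Clec4b1 and Clec4a2, which the rule leaves out because it carries both symbols, had signals of 108 in the hyperglycemic and 89.5 in the normoglycemic graft. Thus Clec4a2 gave near-equal signals on its brighter probe set, whereas Clec4n, Clec4d and Clec4e were 3.33-fold to 17.1-fold higher. The signals of Clec4a2 were not far above the medians of 91.5 in the hyperglycemic and 82.9 in the normoglycemic graft.

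**Figure D2:**
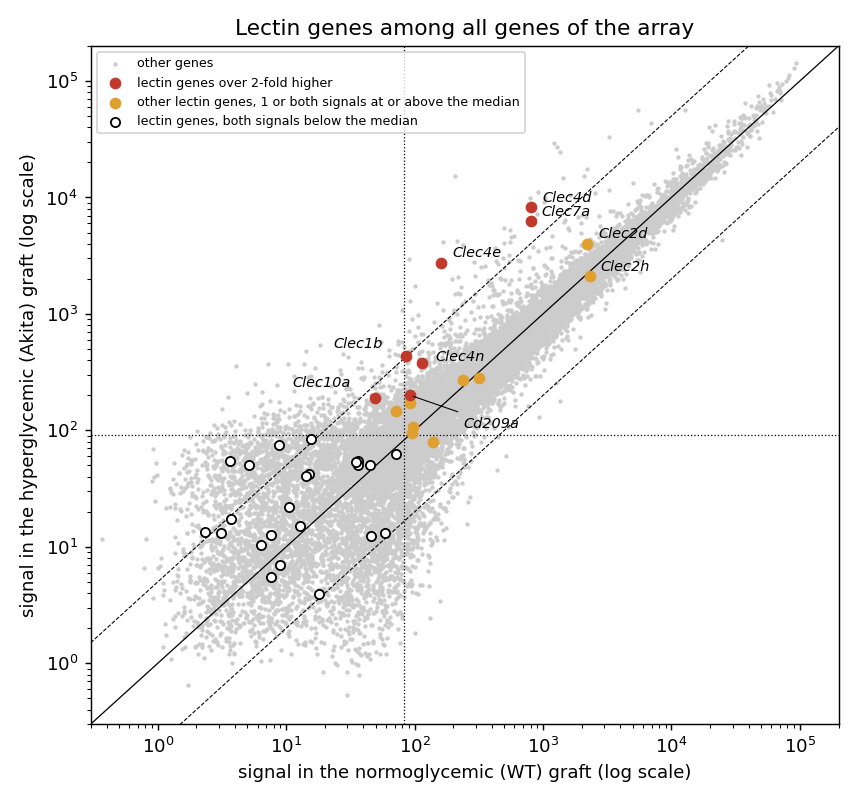
Signals of all genes, 1 point each, in the hyperglycemic graft (y axis, log scale) against the normoglycemic graft (x axis, log scale), with the lectin genes in color. Equal signals lie on the solid line, 5-fold ratios on the dashed lines and the array medians on the dotted lines. Clec4d, Clec4e and Clec7a lie above the upper dashed line, Clec1b just above it, and 23 open points lie below both medians, where points scatter most.

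Of the 39 genes, 19 are on chromosome 6, and these include 5 of the 7 that were over 2-fold higher. In the RefSeq annotation, Clec4n, Clec4d and Clec4e are next to one another as the last 3 of 9 protein-coding genes from Clec4a1 to Clec4e. All 3 were over 2-fold higher. Of the other 6 genes of this run, 3 were on the array with 1 symbol. Clec4a2 gave near-equal signals close to the medians, Clec4a3 was higher by at least 1.76-fold, and Clec4b1 was low in both grafts and had no fold. A second run of 20 protein-coding genes goes from Clec2h to Olr1 and holds 10 of the 39. Of these 10, Clec1b and Clec7a were over 2-fold higher, with Clec1a, at least 1.51-fold lower, on the side of Clec7a facing Clec1b. On the other side of Clec7a lies Olr1, the lectin-like receptor for oxidized low density lipoprotein, which the rule does not take. It had a signal of 4201 in the hyperglycemic and 212 in the normoglycemic graft (19.8-fold). The higher ratios were therefore not shared by all genes of either run. For the first run this rests on Clec4a2 alone, with its signals close to the medians.

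**Figure D3:**
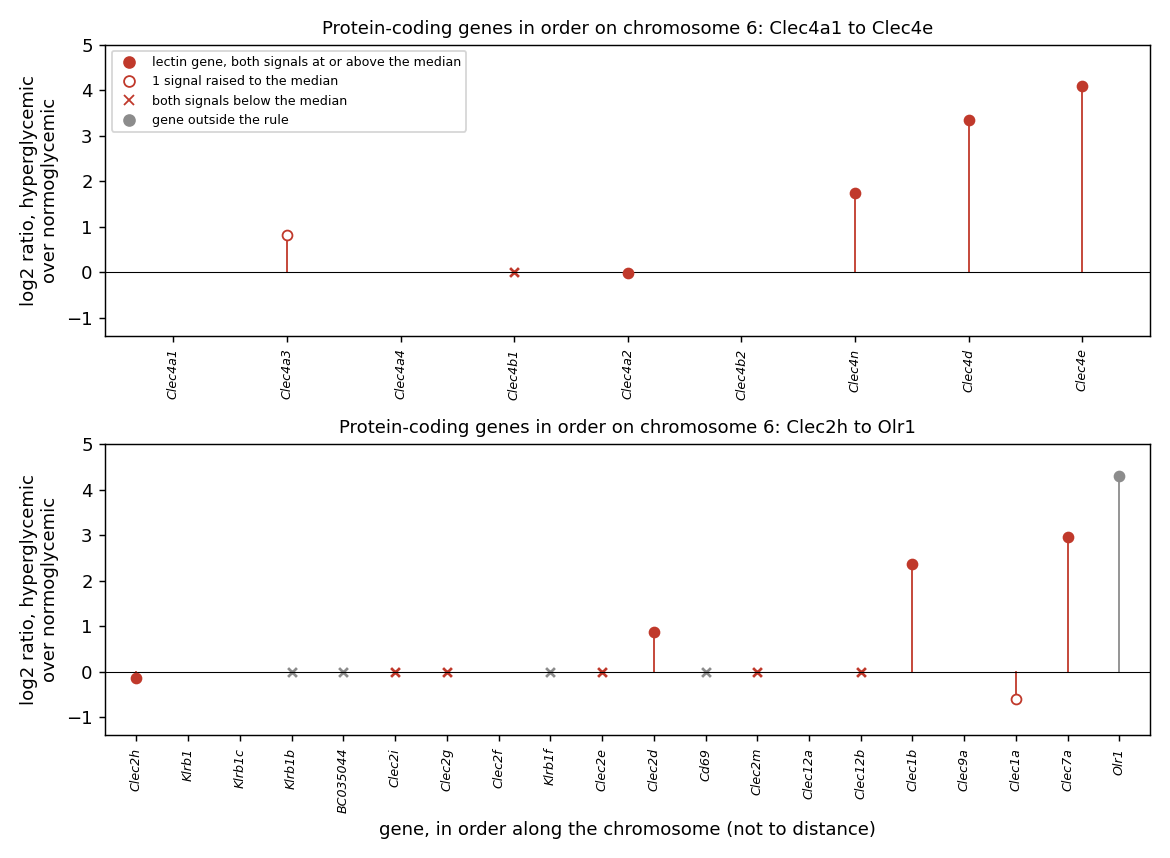
Log2 of the hyperglycemic over the normoglycemic signal (y axis) for protein-coding genes in their order on chromosome 6 (x axis, not to distance), in a run of 9 genes (top) and a run of 20 (bottom). Filled points have no low signal, open points have 1 signal raised to the floor, crosses at 0 have both signals low, and a name without a mark had no probe set with that 1 symbol. The last 3 genes of the top run and Clec1b, Clec7a and Olr1 at the end of the bottom run stand over 1 on the log2 scale.

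Both runs held members over 2-fold higher and members that were not. The sequences before the start sites of some of their members are shown. They are from RefSeq (GRCm38.p6), 250 bases up to the start site (the most upstream of a gene with several), 5′ to 3′ on the strand of the gene. Clec4d, Clec4e and Clec7a had the highest ratios, Clec1b followed, and Clec2h gave near-equal signals in both grafts. Capitals mark matches to GAGGAA, the core of sites bound by PU.1, a transcription factor of myeloid cells, or to TTGCNNAA (TTNNGCAA on the other strand), a form of the site bound by C/EBP factors, each searched on both strands.
Clec4d, chr6:123261857-123262106, plus strand: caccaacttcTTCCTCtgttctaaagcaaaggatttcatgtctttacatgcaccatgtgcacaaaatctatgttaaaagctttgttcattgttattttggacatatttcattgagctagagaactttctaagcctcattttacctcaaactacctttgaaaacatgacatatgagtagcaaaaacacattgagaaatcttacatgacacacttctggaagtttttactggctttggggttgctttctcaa
Clec4e, chr6:123289872-123290121, minus strand: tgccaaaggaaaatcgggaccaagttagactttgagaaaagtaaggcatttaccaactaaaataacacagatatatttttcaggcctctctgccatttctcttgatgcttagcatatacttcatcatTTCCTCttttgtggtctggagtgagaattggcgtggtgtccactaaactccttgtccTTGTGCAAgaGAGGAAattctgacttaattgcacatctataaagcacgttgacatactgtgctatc
Clec7a, chr6:129472786-129473035, minus strand: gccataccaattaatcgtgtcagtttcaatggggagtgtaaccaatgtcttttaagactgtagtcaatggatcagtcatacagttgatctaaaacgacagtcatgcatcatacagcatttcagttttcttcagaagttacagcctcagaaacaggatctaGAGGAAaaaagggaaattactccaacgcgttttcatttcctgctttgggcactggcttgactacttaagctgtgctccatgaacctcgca
Clec1b, chr6:129397047-129397296, plus strand: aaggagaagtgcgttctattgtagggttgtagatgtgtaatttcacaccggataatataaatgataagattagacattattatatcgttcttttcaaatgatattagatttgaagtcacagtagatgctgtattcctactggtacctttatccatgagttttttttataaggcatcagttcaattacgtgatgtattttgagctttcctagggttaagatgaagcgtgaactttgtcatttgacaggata
Clec2h, chr6:128662135-128662384, plus strand: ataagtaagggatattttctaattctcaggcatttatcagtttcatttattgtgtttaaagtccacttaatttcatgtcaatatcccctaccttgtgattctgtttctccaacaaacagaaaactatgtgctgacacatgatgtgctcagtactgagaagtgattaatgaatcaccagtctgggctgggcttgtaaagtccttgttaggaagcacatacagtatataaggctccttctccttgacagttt

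GAGGAA or its reverse complement TTCCTC was found in the windows of Clec4d, Clec4e and Clec7a, and in neither of the other 2. In Clec4e it occurred at 123 and at 56 bases before the start, and a C/EBP match lay at 66 bases, 2 bases away from the nearer of them without overlap. In Clec7a the match was at 90 bases before the start and in Clec4d at 240. Of all 27025 promoters in the table, 23.1% held at least 1 match to the PU.1 core and 9.55% to the C/EBP site. Promoters were matched for 34 of the 39 lectin genes, and 15 of the 34 (44.1%) held the PU.1 core, 3 of 5 among those over 2-fold higher and 12 of 29 among the others. Siglece, low in both grafts, held the most matches of the 34 (3). The C/EBP site was found in 5 of the 34. Both motifs were chosen after the ratios had been seen, and a match of letters is not a bound site. Clec10a, Clec1a, Clec3b, Clec4n and Siglec1 were not matched.

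Receptors that take up glycoproteins were mostly low. Clec10a and Mgl2 encode lectins for galactose and N-acetylgalactosamine on macrophages and dendritic cells. Clec10a had signals of 189 in the hyperglycemic graft and 49.3 in the normoglycemic graft, at least 2.28-fold higher, whereas Mgl2 was low in both (50.5 in the hyperglycemic and 44.6 in the normoglycemic graft). Cd209a, a mouse relative of human DC-SIGN on dendritic cells and monocytes, had 201 in the hyperglycemic and 91.6 in the normoglycemic graft (2.20-fold), where 91.6 is not far above the median. With the arrays centred on their medians its log2 ratio was 0.99, under the limit. The 6 other Cd209 genes (Cd209b, Cd209c, Cd209d, Cd209e, Cd209f and Cd209g) were low in both grafts, with signals of 10.3 (Cd209g) to 84.3 (Cd209c) in the hyperglycemic and 3.10 (Cd209e) to 15.5 (Cd209c) in the normoglycemic graft. All 6 had the larger value in the hyperglycemic graft, but at these signals the technical spread was 2.90-fold to 3.99-fold. Clec4f, a receptor of liver macrophages, and Clec4g, of liver sinusoidal endothelium, were low as well, Clec4f with 54.2 in the hyperglycemic and 36.1 in the normoglycemic graft and Clec4g with 12.5 in the hyperglycemic and 45.5 in the normoglycemic graft.

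Clec1b encodes CLEC-2, the receptor for podoplanin on platelets and some myeloid cells. Its signal was 438 in the hyperglycemic graft and 85.7 in the normoglycemic graft (5.12-fold), where 85.7 is close to the median of 82.9. It was under 5-fold with any of the other scalings tried. Of 6 platelet genes on the array, 4 had both signals at or above the medians and 2 were over 2-fold higher, Pf4 at 14749 in the hyperglycemic and 1433 in the normoglycemic graft and Ppbp at 935 in the hyperglycemic and 322 in the normoglycemic graft, whereas Itga2b, the platelet integrin, had 355 in the hyperglycemic and 228 in the normoglycemic graft and Gp1bb, of the platelet receptor for von Willebrand factor, 108 in the hyperglycemic and 146 in the normoglycemic graft. The summed signal of the 6 was 16284 in the hyperglycemic and 2193 in the normoglycemic graft, most of it from Pf4. The median ratio of the 4 without a low signal was 2.12-fold. The part of platelets in the signal of Clec1b was not tested. Podoplanin itself (Pdpn) had 158 in the hyperglycemic and 236 in the normoglycemic graft.

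Neither endothelial member differed by over 2-fold. Clec14a, a receptor of endothelial cells, had signals of 106 in the hyperglycemic graft and 96.7 in the normoglycemic graft on its brighter probe set. On the other it had 13.3 in the hyperglycemic and 47.4 in the normoglycemic graft, both low. Mmrn2, which encodes its matrix ligand, was 2.49-fold lower (182 in the hyperglycemic and 453 in the normoglycemic graft). Clec1a had 79.1 in the hyperglycemic and 138 in the normoglycemic graft, at least 1.51-fold lower, and its other probe set had 71.0 in the hyperglycemic and 92.0 in the normoglycemic graft. Of 8 endothelial genes on the array, 4 had both signals at or above the medians, all 4 of these were lower in the hyperglycemic graft, and the summed signal of the 8 was 1595 in the hyperglycemic and 2765 in the normoglycemic graft. Of the 8, 1 was over 2-fold lower, Tek, at least 3.62-fold (80.2 in the hyperglycemic and 331 in the normoglycemic graft), and 0 were over 2-fold higher.

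Of the Clec2 genes, some of which encode ligands of NK cell receptors, 2 had no low signal. Clec2h, a ligand gene expressed in mouse kidney and gut, had signals of 2111 in the hyperglycemic graft and 2322 in the normoglycemic graft, and its other probe sets had 1143 in the hyperglycemic against 1144 in the normoglycemic graft, and 743 in the hyperglycemic against 758 in the normoglycemic graft. All 3 ratios, of which 0.909 was farthest from equal signals, lay within the technical spread of 1.16-fold to 1.26-fold. Clec2d, the widely expressed ligand of the inhibitory receptor Klrb1b, had 4023 in the hyperglycemic and 2217 in the normoglycemic graft (1.81-fold higher), beyond that spread and under the limit of 2-fold. The 5 other genes of this group, Clec2e, Clec2g, Clec2i, Clec2l and Clec2m, were low in both grafts, at 12.7 to 62.3 in the hyperglycemic and 2.34 to 71.2 in the normoglycemic graft. Clec2g, for example, had 54.1 in the hyperglycemic and 3.64 in the normoglycemic graft, a gap that lies wholly below the medians.

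The secreted and tissue proteins differed little. Clec16a, which has been linked to mitophagy in beta cells, had signals of 273 in the hyperglycemic graft and 237 in the normoglycemic graft (1.15-fold). Clec11a, a secreted growth factor, had 281 in the hyperglycemic and 316 in the normoglycemic graft (1.13-fold lower). Both ratios were within the technical spread. Clec3b, which encodes the plasminogen-binding protein tetranectin, was low in both grafts (40.9 in the hyperglycemic and 14.3 in the normoglycemic graft), and so was Clec18a (5.52 in the hyperglycemic and 7.57 in the normoglycemic graft).

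Of the 5 Siglecs, 1 reached the medians. Siglecg, an inhibitory receptor of B cells, had signals of 171 in the hyperglycemic graft and 92.2 in the normoglycemic graft (1.86-fold higher). Siglec1, the sialoadhesin of some tissue macrophages, was low on all 3 of its probe sets, with 53.2, 31.2 and 15.5 in the hyperglycemic graft and 35.1, 2.73 and 81.0 on the same probe sets in the normoglycemic graft. The 3 probe sets disagreed on direction. Siglece of neutrophils and macrophages (17.3 in the hyperglycemic and 3.72 in the normoglycemic graft), Siglecf of eosinophils (3.91 in the hyperglycemic and 18.1 in the normoglycemic graft) and Siglech of plasmacytoid dendritic cells (50.3 in the hyperglycemic and 5.13 in the normoglycemic graft) were low in both. A few Siglecs carry other names. Cd33 was 4.20-fold higher (452 in the hyperglycemic and 107 in the normoglycemic graft) and Cd22, a B cell receptor for sialic acid, 2.13-fold higher (237 in the hyperglycemic and 111 in the normoglycemic graft), while Mag had 112 in the hyperglycemic and 21.8 in the normoglycemic graft. Of 6 B cell genes on the array, 2 were over 2-fold higher, Ms4a1 at least 5.25-fold and Cd79b at least 4.46-fold. Pax5 had 15.5 in the hyperglycemic and 113 in the normoglycemic graft, and Cd79a, low in both, had 23.0 in the hyperglycemic and 44.9 in the normoglycemic graft. None of the 6 had both signals at or above the medians (summed signal 997 in the hyperglycemic and 266 in the normoglycemic graft). Their part in the signals of Siglecg and Cd22 was not tested.

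Some adaptors and kinases of these receptors were higher as well. Of 19 listed genes 16 were on the array, and 6 of them exceeded 2-fold upward and 0 downward. Card9 was not among the 16, so no value is given for it. Lcp2, the scaffold SLP-76, had signals of 899 in the hyperglycemic graft and 94.8 in the normoglycemic graft (9.49-fold). Tyrobp, the adaptor of Clec5a, had 7259 in the hyperglycemic and 898 in the normoglycemic graft (8.08-fold), and Fcer1g, the adaptor of Mincle, MCL and Dectin-2, had 2790 in the hyperglycemic and 542 in the normoglycemic graft (5.15-fold). Syk was at least 2.80-fold higher (232 in the hyperglycemic and 49.5 in the normoglycemic graft), Hcst, another adaptor, at least 2.86-fold (237 in the hyperglycemic and 53.7 in the normoglycemic graft), and Inpp5d, a lipid phosphatase that limits these signals, 3.55-fold (403 in the hyperglycemic and 114 in the normoglycemic graft). Bcl10 and Malt1, broadly expressed steps farther along, differed less. Bcl10 had 3377 in the hyperglycemic and 3983 in the normoglycemic graft, and Malt1 260 in the hyperglycemic and 236 in the normoglycemic graft. Ptpn11, a phosphatase that inhibitory motifs recruit, had 2303 in the hyperglycemic and 3025 in the normoglycemic graft. Ptpn6, the phosphatase of inhibitory receptors in leukocytes, had 1002 in the hyperglycemic and 586 in the normoglycemic graft (1.71-fold higher).

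Other genes of the pathway were mixed. Of 30 further proteins with a C-type lectin domain on the array, 5 were higher by over 2-fold and 0 lower. These were Olr1, Selp (P-selectin, 5.28-fold, 1064 in the hyperglycemic and 202 in the normoglycemic graft), Mrc1 (the mannose receptor of macrophages, at least 3.88-fold, 322 in the hyperglycemic and 80.1 in the normoglycemic graft), Cd93 (2.62-fold, 3010 in the hyperglycemic and 1147 in the normoglycemic graft) and Klra2 (at least 2.03-fold). Among 14 targets of Syk and Card9 signaling, 6 were over 2-fold higher, such as Cxcl2 at 6453 in the hyperglycemic and 1496 in the normoglycemic graft, and 5 were low in both grafts, among them Il10 (66.1 in the hyperglycemic and 39.5 in the normoglycemic graft) and Il12b (47.5 in the hyperglycemic and 64.6 in the normoglycemic graft). Of 8 ligands and counter-receptors, 1 was over 2-fold higher (Vim) and 1 lower (Mmrn2). The gene Sap130 of that list shares a name with a ligand of Mincle but encodes another protein. Of 17 genes that make, transfer or remove sialic acid, 4 were over 2-fold higher and 0 lower. These were the sialyltransferase genes St3gal5 (2.81-fold, 584 in the hyperglycemic and 208 in the normoglycemic graft), St3gal4 (2.74-fold, 258 in the hyperglycemic and 94.3 in the normoglycemic graft), St8sia4 (2.26-fold, 399 in the hyperglycemic and 177 in the normoglycemic graft) and St3gal1 (at least 2.09-fold), whereas Gne, which starts sialic acid synthesis, had 540 in the hyperglycemic and 510 in the normoglycemic graft.

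Several lists of markers of cells that carry these receptors were higher in the hyperglycemic graft too. Of 8 macrophage genes on the array, none had a low signal and 7 were over 2-fold higher, from Fcgr1 (2.20-fold) to Lyz2 (10.1-fold), with Mertk at 1497 in the hyperglycemic and 1521 in the normoglycemic graft. Their summed signal was 81549 in the hyperglycemic and 11717 in the normoglycemic graft (6.96-fold), of which Lyz2 alone had 55987 in the hyperglycemic and 5539 in the normoglycemic graft. The median ratio of the 8 was 6.21-fold. Clec7a at 7.79-fold and Clec4n at 3.33-fold lay within the range of these 8 genes, Clec4d at 10.2-fold just past its upper end, and Clec4e at 17.1-fold above it. With the median of both probe sets the log2 ratio of Clec4e was 3.05, and with the floor at the 75th percentile 2.77. The macrophage genes were not recomputed under these settings, so these 2 values cannot be placed in that range. Of 10 genes of peritoneal macrophages, which were listed with their high ratios known, all 10 were over 2-fold higher and the summed signal was 140580 in the hyperglycemic and 20085 in the normoglycemic graft. The 9 of them without a low signal ran from 2.17-fold (Icam2) to 74.95-fold (Cxcl13). Clec4n, Clec7a, Clec4d and Clec4e all lay between these 2 ratios. Of 9 neutrophil genes 4 were over 2-fold higher (in sum 17569 in the hyperglycemic and 4617 in the normoglycemic graft), and most of the sum came from S100a8 and S100a9. Cxcr2, Camp and Ngp were low in both grafts, and Mpo had 118 in the hyperglycemic and 140 in the normoglycemic graft. Of 6 blood monocyte genes 1 was over 2-fold higher, F13a1 (in sum 4061 in the hyperglycemic and 2605 in the normoglycemic graft). Of the same 6, Cx3cr1 had 97.6 in the hyperglycemic and 131 in the normoglycemic graft and Spn 108 in the hyperglycemic and 179 in the normoglycemic graft. Of 7 genes of conventional dendritic cells 1 was over 2-fold higher (Itgax), and Flt3, Xcr1 and Ccr7 were low in both grafts (in sum 695 in the hyperglycemic and 426 in the normoglycemic graft). No signal of a marker was 0, which does not show that its cell was present. Many were low, such as Flt3 with 5.74 in the hyperglycemic and 9.42 in the normoglycemic graft. The part of any of these cells in the signals of the lectin genes was not tested, and in such tissue samples more cells of a type and more RNA per cell cannot be told apart.

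**Figure D4:**
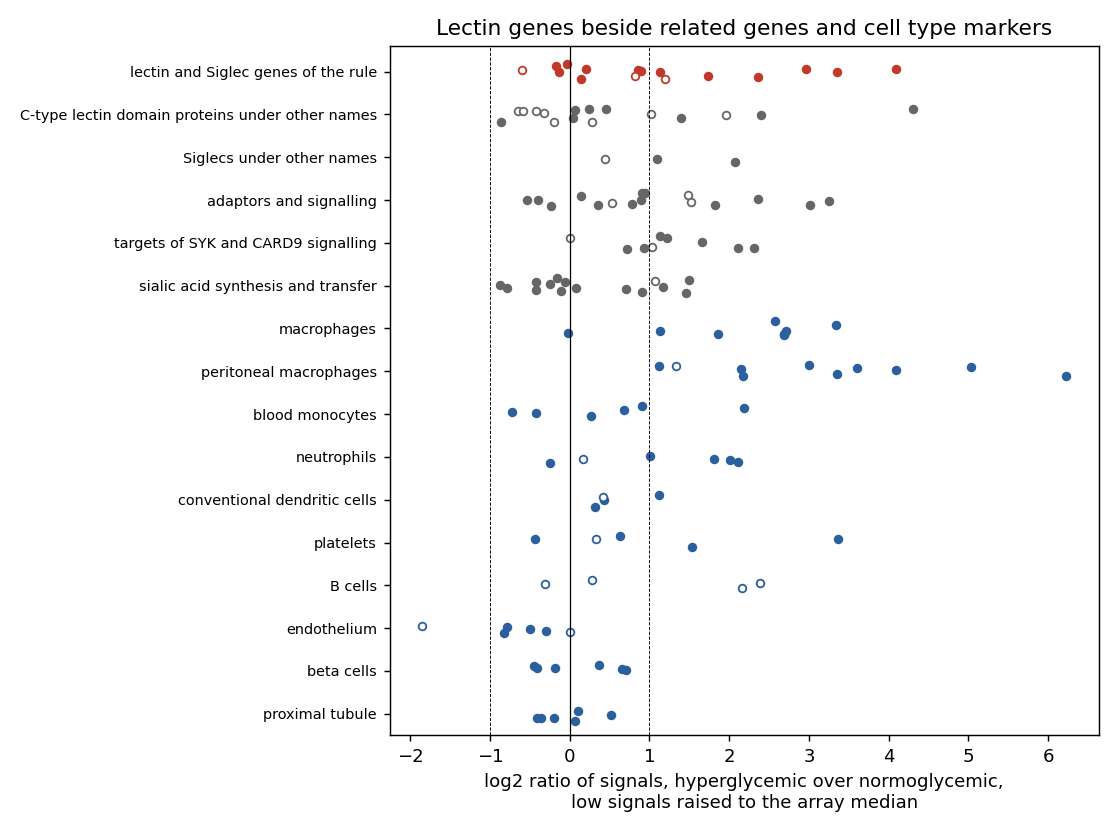
Log2 of the hyperglycemic over the normoglycemic signal (x axis) for the lectin genes (red), related genes (gray) and cell type markers (blue), 1 point per gene with at least 1 signal at or above its array median. Open points have 1 signal raised to the floor, and dashed lines mark 2-fold. The lectin genes spread from -0.59 to 4.10, and 7 of the 8 macrophage genes lie to the right of the 2-fold line.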

How the data were processed

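Total RNA of 1 graft sample per condition was measured on 1 array each, and the authors deposited MAS5 signal intensities, not log-transformed, in 1 table. The MAS5 version, its settings and the genome build were not given in the sources used here, and the paper's methods name only the Subio Platform for the expression analysis. The number of arrays limits the precision. Of 45101 probe sets, 64 were controls, and 34945 others carried 1 gene symbol in the platform annotation, 932 several and 9211 none. All 39 lectin genes were found by gene identifier in RefSeq (GRCm38.p6), and 0 symbols needed updating.

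Signals were compared without further scaling as hyperglycemic over normoglycemic, with the array medians as floors. A gene with both signals low was given a log2 ratio of 0 in counts. The technical spread came from the 2 brightest probe sets of each other gene. The members, the 6 pathway lists and the 16 marker lists were chosen with earlier results of these data known. Every lectin gene was named, and of each list those over 2-fold and up to 4 bright genes could be; other genes of the lists were picked after their values had been seen. The lists not described above gave the following counts over 2-fold higher. Of 7 mast cell genes 3 were, and 6 of the 7 had only the hyperglycemic signal at or above its median. Their summed signal was 2041 in the hyperglycemic and 251 in the normoglycemic graft, where all 7 were low. The count was 0 of 5 eosinophil genes, 0 of 7 T and NK cell genes and 0 of 5 mesothelium genes. It was 0 of 6 fibroblast genes, with 2 over 2-fold lower, and 1 of 5 genes listed for plasmacytoid dendritic cells. Of these 5, Klk1 is a kidney gene. Tried instead were centring on the medians, quantile normalization, loess (span 0.3, 3 iterations), floors at the 25th or 75th percentile or none, the median of all probe sets and leaving out probe sets of the s_at and x_at kinds. A common floor and centring on 6 beta cell genes were added after the values had been seen. The computation was tested on simulated data. Python 3.11.15, numpy 2.4.6, pandas 2.3.3, statsmodels 0.14.6 and matplotlib 3.10.9 were used.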

Additional observations from a re-analysis of the deposited data

How the results depend on the processing

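Clec4d, Clec4e and Clec7a were over 2-fold higher under each of the 10 alternatives that gave them a value, and Clec4d had none without probe sets of the s_at kind. The count of lectin genes over 2-fold higher was 12 with the floor at the 25th percentile, 3 (Clec4d, Clec4e and Clec7a) with the floor at the 75th and 18 with no floor. The count over 2-fold lower was 1 with the 25th percentile and 3 with no floor, and the count over 5-fold higher was 9 with no floor. With the 25th percentile 21 genes, and with the 75th percentile 4, had both signals at or above the floor, and with the 75th their median log2 ratio was 1.91 and the adaptors and signaling genes over 2-fold higher were 3. A lower floor admits more low signals by construction. With no floor, the number of genes with both signals above it and their median could not be had. Median centring moved the median log2 ratio of all genes by -0.14 and took Clec14a to a log2 ratio of -0.00379. The count over 5-fold was 3, without Clec1b, under the 3 other scalings, the floor at the 75th percentile, the common floor and the centring on beta cell genes, and 3, without Clec4d, when probe sets of the s_at kind were left out. The number of arrays and signals near the median limit these values, and no paired analysis was possible because each condition had 1 array.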
